A study of Homo sapiens with 8 samples.

Results

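Complement is a cascade of blood and tissue proteins that marks microbes and damaged cells for removal. Recognition molecules switch on the proteases C1r and C1s, of which C1s cleaves C4 and C2. The alternative pathway uses factor B and factor D, and both routes meet at C3, the central component. Host cells hold the cascade in check with soluble factor I, which cuts C3b and C4b, and with the membrane proteins CD55, which takes convertases apart, and CD59, which blocks the terminal pore. The liver makes most circulating complement, but epithelial and stromal cells of the gut also transcribe complement genes and raise several of them when the cytokines TNFα (tumor necrosis factor α) and IFNγ (interferon γ) are present. The 9 complement genes described here were chosen by gene symbol from the 60558 genes of the expression tables, and each symbol matched 1 row. They are the components C1R, C1S, C2, C3, CFB and CFD and the inhibitors CFI, CD55 and CD59.

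RNA-seq was carried out on 2D human intestinal epithelial cells (hIECs) made from H9, a widely used established line of human embryonic stem cells, in 4 groups of 2 libraries. Normal hIECs (labelled NT) received no cytokines and no particles, and PM10-treated normal hIECs (labelled PM10) received particulate matter of the PM10 class, a coarse air pollutant. Inflamed hIECs (labelled IT) received IFNγ at 50 ng/ml and TNFα at 50 ng/ml for 10 days, and PM10-treated inflamed hIECs (labelled IT-PM10) received the same cytokines together with PM10. The dose of PM10 was 100 μg/ml over the final 7 days, while the sample labels give 10 days of treatment for each library. All groups came from the same line, and the labels do not say whether the libraries of a group came from separate cultures, so the p-values measure only the spread between these libraries, which may be technical. Values are FPKM, the fragments assigned to a gene corrected for transcript length and for the mapped total, and read depth cannot be recovered from them. The smallest nonzero value of a library lay at 0.164 to 0.228 FPKM, 16547 to 18926 genes were above 0, and genes encoded by mitochondrial DNA held 15.5% to 24.2% of the FPKM sum.

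The label of the cells was checked against marker genes. Of 10 epithelial markers 3 were tested, with KRT8 at 185 to 383 FPKM, and 4 were at 0 in all 8 libraries, including the intestinal factor CDX2 and the brush border gene VIL1, while EPCAM stayed under 1 FPKM. Of 6 enterocyte markers 5 were at 0 in all libraries, whereas all 10 mesenchymal markers were tested, with VIM, the gene of vimentin, at 718 to 973 FPKM. The summed epithelial markers were lower in the 4 cytokine-treated libraries (287 to 352 FPKM against 598 to 652), most of it KRT8 and KRT18, and the summed mesenchymal markers were at 5664 to 5731 FPKM in inflamed, 5010 to 5028 in normal, 4350 to 4369 in PM10-treated normal and 4995 to 5020 in PM10-treated inflamed hIECs. Between inflamed and normal hIECs 4 of the 10 mesenchymal markers were called higher (COL1A1, LUM, ACTA2 and TAGLN), 4 lower (COL1A2, COL3A1, PDGFRA and PDGFRB) and 2 not. The 5 neuronal markers summed to 181 to 205 FPKM without and 107 to 125 with cytokines. Most of this fall was STMN2, at 114 to 131 FPKM without and 52.5 to 64.8 with cytokines. Between inflamed and normal hIECs TUBB3 and DCX were also called lower, MAP2 was not called, and ELAVL4 was at 0 in all libraries. Hepatocyte markers were at 0 in all libraries for 6 of 7 genes, leukocyte markers for 5 of 6 and endothelial markers for 4 of 5, none of these 3 lists having a tested gene. The part of these shifts in the complement values was not tested, and in these bulk libraries fewer cells of a type and less RNA per cell cannot be told apart. The cytokine target CXCL10 was at 1.27 and 1.73 FPKM in normal and at 1283 and 1314 in inflamed hIECs. The PM10 response gene CYP1B1 was at 5.95 and 6.91 FPKM in normal and at 62.8 and 65.7 in PM10-treated normal hIECs. Both matched the labels in direction. CYP1B1 was not particular to PM10, as it was at 37.6 and 35.7 FPKM in inflamed hIECs, against 254 in both PM10-treated inflamed libraries. Of the other listed PM10 response genes, TIPARP was called higher with PM10 in normal and in inflamed hIECs. NQO1 and HMOX1 were called higher in normal hIECs only, and CYP1A1 and AHRR were not tested.

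The DNA before an annotated start site is shown for CFB and C1R, which rose with the cytokines, and for CFI, which fell. These 3 genes were picked with their changes and their matches to sites of interferon-responsive factors known. Whether a match goes with a change was not tested. The sequences are RefSeq promoter sequence of build GRCh38.p14, covering the 250 bases before an annotated start site, 5′ to 3′ on the strand of the gene. Capitals mark a match on either strand to the interferon-stimulated response element (ISRE, searched as GAAANNGAAA) or to the gamma-activated site (GAS, searched as TTCNNNGAA), where N is any base.
CFB, chr6:31945845-31946094, + strand: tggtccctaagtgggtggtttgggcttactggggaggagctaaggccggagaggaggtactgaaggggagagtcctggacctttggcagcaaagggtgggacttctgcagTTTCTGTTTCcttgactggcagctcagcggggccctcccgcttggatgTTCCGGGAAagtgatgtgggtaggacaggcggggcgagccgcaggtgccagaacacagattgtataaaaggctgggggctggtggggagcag
C1R, chr12:7091894-7092143, - strand: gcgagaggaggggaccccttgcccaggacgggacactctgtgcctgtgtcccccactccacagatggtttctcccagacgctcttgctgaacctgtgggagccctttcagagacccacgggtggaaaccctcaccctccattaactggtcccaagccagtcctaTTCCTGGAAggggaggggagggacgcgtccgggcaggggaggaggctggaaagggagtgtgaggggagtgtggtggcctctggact
CFI, chr4:109802000-109802249, - strand: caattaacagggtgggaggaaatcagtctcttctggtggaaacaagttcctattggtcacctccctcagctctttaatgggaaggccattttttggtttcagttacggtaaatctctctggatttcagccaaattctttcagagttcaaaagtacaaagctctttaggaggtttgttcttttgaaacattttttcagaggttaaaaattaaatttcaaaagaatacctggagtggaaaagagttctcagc
In CFB the ISRE match lay at -140 to -131 and the GAS match at -92 to -84 relative to the start site, and in C1R a GAS match lay at -86 to -78 relative to this start, which is one of 2 for the gene. The other C1R start and the CFI start had no match. The 12 windows found for 7 of the 9 genes each held 300 bases, from 250 before to 50 after a start. An ISRE match lay in 1 of them and a GAS match in 4. Besides those of CFB and C1R, the GAS matches lay in overlapping windows of CD59 starts, at -128 and -184. They were the same site, so the count of 4 holds that site more than once. No window held a match to the kappa-B site bound by NF-κB. Among all 35116 promoter windows of the same length, 3.57% held the ISRE letters, 7.66% the GAS letters and 5.91% the kappa-B letters. No window was found for C1S or C3. A match of letters is a description of the sequence, and parts of these windows overlap exons of other annotated transcripts. The CFB and C1R stretches shown lie inside the annotated spans of these genes, and the CFI stretch partly does. Of 6 listed transcription factors with roles at complement promoters 3 were called higher in inflamed than in normal hIECs, 1 lower and 2 not, beside 56.2% of all genes tested. IRF1, an interferon-induced factor, was at 3.09 and 4.21 FPKM in normal and at 81.2 and 81.3 in inflamed hIECs (log2 change 4.15, SE 0.11, limma adjusted p = 1.66e-07). NFKB1, a subunit of NF-κB, was at 5.36 and 5.56 FPKM against 22.0 and 22.3 (log2 change 1.84, SE 0.059, limma adjusted p = 4.64e-07). CEBPB rose by 1.01 (limma adjusted p = 3.29e-05), and STAT3, which binds GAS-like sites, was at 35.01 and 32.65 against 41.50 and 38.95 FPKM and fell by 0.24 (limma adjusted p = 0.00786), a call that ended after rescaling to TPM and without the inflamed library at 32.65 FPKM. RELA, the other NF-κB subunit listed, was at 25.6 and 23.8 against 24.8 and 24.4 FPKM and CEBPD at 18.0 and 20.5 against 17.3 and 19.6, and neither was called.

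The first question was how the inflammatory cytokines alone moved complement transcripts. Inflamed hIECs held more C1R, C1S, C3 and CFB transcript and less CFI and CD55 transcript than normal hIECs, and CD59 did not pass the test. By FPKM, C1S was 40.2-fold and C1R 9.19-fold higher, C3 was 11.4-fold higher from a level near the lowest listed value, and CFI was 1.90-fold and CD55 2.12-fold lower. Changes were taken on the log2(FPKM + 1) scale, with limma on the 8 libraries together. A gene was tested if 2 or more libraries reached 1 FPKM, which left 14206 genes, and it was called at a Benjamini-Hochberg adjusted p under 0.05. Of the 9 genes 7 were tested, and 6 of these were called, 4 higher and 2 lower, beside 56.2% of all genes tested (25.9% higher and 30.3% lower). By both the adjusted p and a change of at least 2-fold, 5 were called, beside 9.18% of all genes tested. C3 and CFB reached the filter only through the cytokine-treated libraries, so the count over tested genes says less than each gene's own values. The median change of the 7 genes was 1.91 on the log2 scale, the value of CFB itself, beside -0.03 over all genes tested. It was 0.50, the value of CD59, both over all 9 genes, when every gene above 0 in any library was tested, and over the 5 with a mean of at least 5 FPKM.

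**Figure D1:**
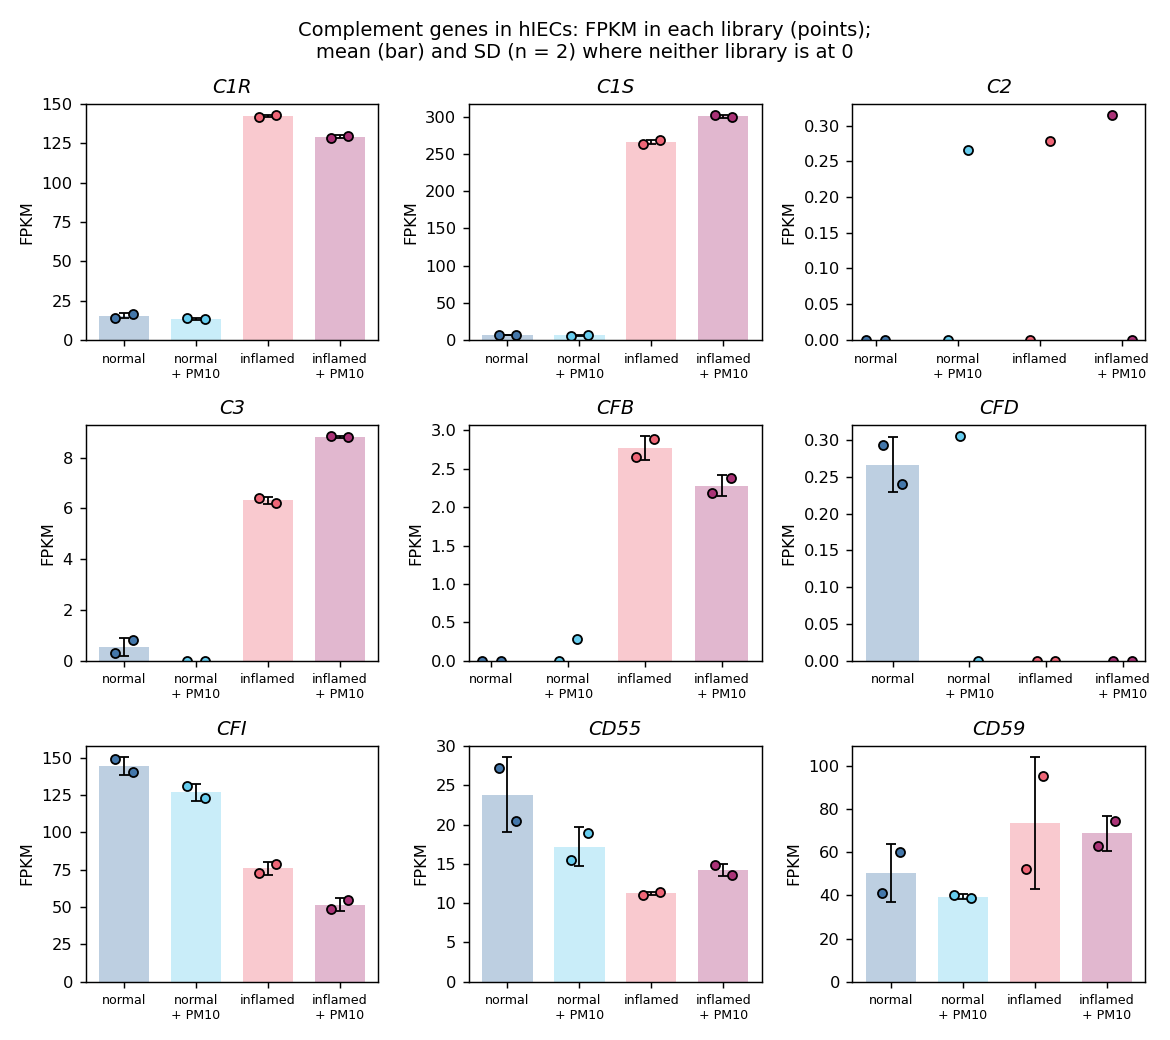
FPKM of the 9 complement genes (y axes, each from 0 on its own scale) in the 4 groups (x axes); points are single libraries, bars the group mean and error bars the SD of 2 libraries, drawn only where neither library was at 0. C1R, C1S, C3 and CFB stood apart between groups with and without cytokines, CFI was lowest in PM10-treated inflamed hIECs at 48.5 and 54.6 FPKM, and the inflamed CD59 libraries lay far from each other at 52.2 and 95.4 FPKM.

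C1R and C1S encode the paired proteases that sit in the C1 complex and start the classical pathway. C1S (ENSG00000182326, chr12:6988259-7071032, + strand, GRCh38) was at 6.29 and 6.95 FPKM in normal, 5.86 and 6.54 in PM10-treated normal, 264 and 269 in inflamed and 302 and 299 in PM10-treated inflamed hIECs. The 4 libraries with cytokines all lay above the 4 without, and the libraries of each group lay close together. On the log2(FPKM + 1) scale the change in inflamed against normal hIECs was 5.13 (SE 0.064, limma adjusted p = 4.50e-09), which ranked 12 from the top among 14206 genes. C1R (ENSG00000159403, chr12:7080214-7092540, - strand) was at 14.2 and 16.7 FPKM in normal, 13.97 and 13.03 in PM10-treated normal, 142 and 143 in inflamed and 129 and 130 in PM10-treated inflamed hIECs. Its groups with and without cytokines did not overlap either, and its change was 3.12 (SE 0.075, limma adjusted p = 1.05e-07), rank 62 from the top. In GENCODE release 44 C1R shares 11.6% of its exon bases with its neighbour C1RL on the same strand, and C1S shares 2.76% with another transcript.

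The order of the pair turned over. FPKM is scaled to transcript length, so the 2 levels can be set side by side, and C1S was at 0.415 to 0.502 times the C1R level in the 4 libraries without cytokines and at 1.86 to 2.35 times in the 4 with them. The log2 ratio was -1.17 ± 0.13 (SD, n = 4) without and 1.06 ± 0.18 (SD, n = 4) with cytokines, a difference of 2.23 (exact two-sided permutation test, p = 0.0286, the smallest that 4 against 4 libraries allow). This difference pools libraries with and without PM10, and the ratio was 1.86 and 1.88 in inflamed and 2.35 and 2.31 in PM10-treated inflamed hIECs. The ratio test uses the same values as the changes of C1S and C1R above, so its p-value is no separate support for them.

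C3 and CFB carry the alternative pathway, in which factor B bound to C3b forms the convertase that cuts more C3. C3 (ENSG00000125730, chr19:6677704-6730562, - strand) was at 0.304 and 0.806 FPKM in normal, at 0 in both PM10-treated normal, at 6.41 and 6.23 in inflamed and at 8.85 and 8.81 in PM10-treated inflamed hIECs. The normal libraries stood at only 1.86 and 3.77 times the lowest value listed in them, so the base of any fold is poorly measured. The change with cytokines was 2.25 (SE 0.14, limma adjusted p = 1.24e-05), rank 134 from the top. CFB (ENSG00000243649, chr6:31945650-31952086, + strand) was listed at 0 in 3 of the 4 libraries without cytokines and at 0.286 FPKM in the other, against 2.66 and 2.88 in inflamed and 2.19 and 2.38 in PM10-treated inflamed hIECs. All libraries with cytokines were above all those without, no fold is given against values of 0, and the change on the log2(FPKM + 1) scale was 1.91 (SE 0.13, limma adjusted p = 1.85e-05). With a pseudocount of 0.01 in place of 1 the CFB change read 8.12 and the C3 change 3.65, so the size of these changes depends on the pseudocount. CFB shares 42.8% of its exon bases with other genes, chiefly a read-through gene that also spans C2 and was at 0 in every library.

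C2 and CFD, which are needed to form the classical and the alternative convertase, were hardly detected. C2 (ENSG00000166278, chr6:31897785-31945673, + strand), the protease of the classical and lectin convertase, was listed at 0 in 5 libraries and at 0.266 FPKM in 1 PM10-treated normal, 0.278 in 1 inflamed and 0.315 in 1 PM10-treated inflamed library. CFD (ENSG00000197766, chr19:859453-867884, + strand), the protease that activates factor B, was at 0.294 and 0.240 FPKM in normal hIECs, at 0.306 in 1 PM10-treated normal library and at 0 in the other 5. All these values lay under 2 times the lowest listed value of their library, neither gene reached the minimum of 1 FPKM, and neither was tested. A difference between groups was not detectable for them at these levels.

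The inhibitors did not move together. CFI (ENSG00000205403, chr4:109731008-109802150, - strand), the soluble protease that inactivates C3b and C4b, was the most abundant of the 9 genes in normal hIECs at 149 and 140 FPKM, and stood at 131 and 123 in PM10-treated normal, 72.7 and 79.1 in inflamed and 48.5 and 54.6 in PM10-treated inflamed hIECs. Its 4 groups did not overlap in any pair. CFI fell by 0.92 on the log2 scale in inflamed hIECs (SE 0.074, limma adjusted p = 4.17e-05). CD55 (ENSG00000196352, chr1:207321519-207386804, + strand), which speeds the decay of convertases on the cell surface, was at 27.2 and 20.4 FPKM in normal, 15.4 and 18.9 in PM10-treated normal, 11.1 and 11.4 in inflamed and 14.8 and 13.7 in PM10-treated inflamed hIECs. The inflamed libraries were the lowest of the 8, and CD55 fell by 1.01 (SE 0.14, limma adjusted p = 0.000641). CD59 (ENSG00000085063, chr11:33703010-33736479, - strand), the membrane blocker of the terminal complex, was at 40.9 and 60.1 FPKM in normal, 40.2 and 38.6 in PM10-treated normal, 52.2 and 95.4 in inflamed and 63.1 and 74.4 in PM10-treated inflamed hIECs. The normal and inflamed ranges overlapped, the change was 0.50 (SE 0.28, limma adjusted p = 0.159), and the spread of the inflamed libraries (SD 0.61 on the log2 scale, n = 2) was wider than that of 99.4% of the genes tested. Without the inflamed library at 52.2 FPKM the CD59 change was 0.93 (limma adjusted p = 0.0136), so this library decided the call.

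The order of the levels changed with these shifts. In normal hIECs CFI stood above CD59, then came CD55, C1R and C1S, and C3 was under 1 FPKM, with no overlap between the libraries of neighbours in that order. In inflamed hIECs C1S and C1R led, CFI and CD59 followed with overlapping values, and CD55, C3 and CFB came next without overlap. Summed over the 6 components the level was 20.1 to 24.7 FPKM in the 4 libraries without and 415 to 442 in the 4 with cytokines, nearly all of it C1R and C1S. Summed over the 3 inhibitors it was 180 to 221 FPKM without and 126 to 186 with cytokines. Pooled over PM10, the ranges of the inhibitors overlapped and those of the components did not. At like PM10 the inhibitor sums did not overlap. They were at 136 and 186 FPKM in inflamed against 217 and 221 in normal hIECs. With PM10 they were at 126 and 143 FPKM in inflamed against 187 and 180 in normal hIECs. The 9 genes together took 0.046% to 0.055% of the FPKM sum without and 0.132% to 0.145% with cytokines.

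**Figure D2:**
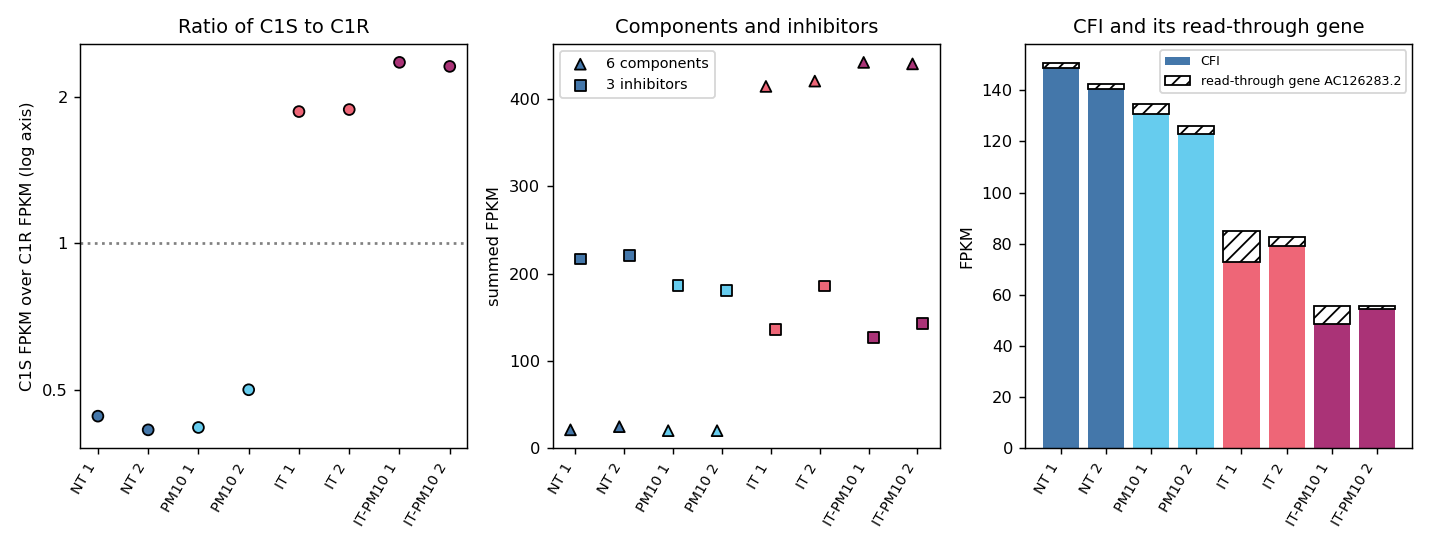
Left, C1S FPKM divided by C1R FPKM in each of the 8 libraries (log axis, dotted line at equal levels); middle, FPKM summed over the 6 components (triangles) and the 3 inhibitors (squares); right, CFI FPKM (filled) with its read-through gene AC126283.2 stacked on top (hatched). The ratio lay at 0.415 to 0.502 without and 1.86 to 2.35 with cytokines, the component sum rose from at most 24.7 to at least 415 FPKM, and the stacked CFI bars fell to 55.6 and 55.7 FPKM in PM10-treated inflamed hIECs.

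The same contrast in the presence of PM10 compared PM10-treated inflamed with PM10-treated normal hIECs. C1S, C1R, C3, CFB and CD59 were called higher and CFI lower, that is 6 of the 7 tested genes, beside 65.4% of all genes tested (25.8% higher and 39.6% lower). Here too C3 and CFB reached the filter only through the cytokine-treated libraries, so the count says less than each gene's own values. C1S was 48.5-fold higher by FPKM, with a log2 change of 5.39 (SE 0.064, limma adjusted p = 2.72e-09), and C1R was 9.57-fold higher, with a change of 3.17 (SE 0.075, limma adjusted p = 7.74e-08). C3, at 0 in both PM10-treated normal libraries, changed by 3.30 (SE 0.14, limma adjusted p = 1.33e-06; 9.79 with a pseudocount of 0.01) and CFB by 1.53 (SE 0.13, limma adjusted p = 3.98e-05). CFI was 2.46-fold lower by FPKM and fell by 1.28 on the log2 scale (SE 0.074, limma adjusted p = 5.62e-06). CD55 did not pass, at 14.8 and 13.7 against 15.4 and 18.9 FPKM (change -0.25, SE 0.14, limma adjusted p = 0.148). CD59 rose by 0.78 (SE 0.28, limma adjusted p = 0.0376), but 7 of 21 alternative settings, among them each setting that left out 1 of the 4 PM10-treated libraries, ended this call, with adjusted p up to 0.157. The median change of the 7 genes was 1.53, again the value of CFB, beside -0.11 over all genes tested, and it was 0.78, the value of CD59, over all 9 genes and over the 5 with a mean of at least 5 FPKM.

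**Figure D3:**
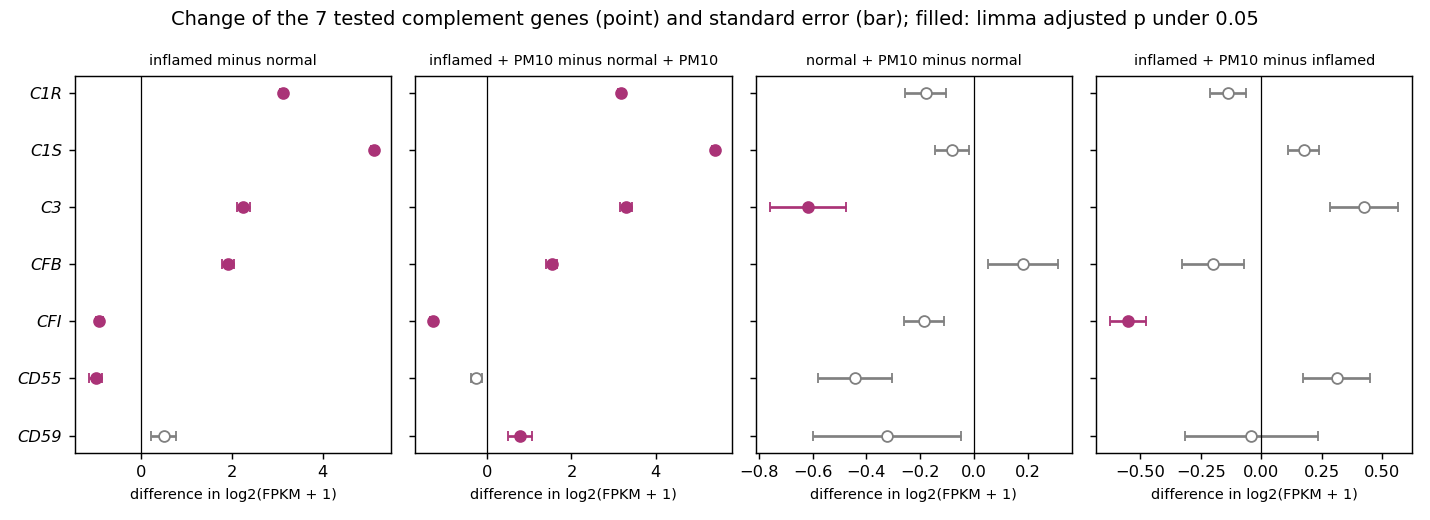
Difference in log2(FPKM + 1) between groups (x axes) for the 7 tested complement genes (y axis) in 4 comparisons named above the panels; points are limma estimates, bars their standard errors, and filled points passed an adjusted p of 0.05. C1S lay at 5.13 and 5.39 and C1R at 3.12 and 3.17 in the panels for cytokines, while only C3 at -0.62 and CFI at -0.55 were filled in those for PM10; the x axes differ between panels.

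The second question was what PM10 did to these transcripts in normal and in inflamed cells. In normal hIECs 1 of the 7 tested genes was called, C3, beside 9.23% of all genes tested (3.72% lower). C3 fell by 0.62 on the log2 scale (SE 0.14, limma adjusted p = 0.0398), from 0.304 and 0.806 FPKM to 0 in both libraries. This is a change between values near the lowest that the tables list, it read -5.66 with a pseudocount of 0.01, and 10 of 19 alternative settings ended the call, including each setting without 1 of the PM10-treated normal, inflamed or PM10-treated inflamed libraries, with adjusted p up to 0.168. CD55 was at 15.4 and 18.9 FPKM with PM10 against 27.2 and 20.4 without, ranges that did not overlap, yet its change of -0.44 (SE 0.14, limma adjusted p = 0.0863) was not called. Without the normal library at 20.4 FPKM it was called (change -0.64, limma adjusted p = 0.0448). C1R, at 13.97 and 13.03 against 14.2 and 16.7 FPKM, had a change of -0.18 (SE 0.075, limma adjusted p = 0.162) and was called only without the normal library at 14.2 FPKM (-0.29, limma adjusted p = 0.0187). CFI had a change of -0.19 (SE 0.074, limma adjusted p = 0.145), C1S of -0.08 (limma adjusted p = 0.428), CD59 of -0.33 (limma adjusted p = 0.467) and CFB of 0.18 (limma adjusted p = 0.387). The median change of the 7 genes was -0.19, beside 0.06 over all genes tested.

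In inflamed hIECs PM10 was followed by a lower level of CFI alone among the 7 tested genes, beside 15.2% of all genes tested (9.02% lower). CFI was at 48.5 and 54.6 FPKM with PM10 against 72.7 and 79.1 without, a 1.47-fold lower mean, and fell by 0.55 on the log2 scale (SE 0.074, limma adjusted p = 0.00418). The call held under all 21 alternative settings, with changes of -0.63 to -0.47. C3 was at 8.85 and 8.81 against 6.41 and 6.23 FPKM, with a change of 0.42 (SE 0.14, limma adjusted p = 0.0836), and C1S at 302 and 299 against 264 and 269, with a change of 0.18 (SE 0.064, limma adjusted p = 0.105). CD55 was at 14.8 and 13.7 against 11.1 and 11.4 FPKM (0.31, SE 0.14, limma adjusted p = 0.169), and C1R at 129 and 130 against 142 and 143 (-0.14, SE 0.075, limma adjusted p = 0.254). With 2 against 2 libraries the smallest two-sided p of an exact permutation test is 0.333. The share of all genes without overlap between the groups was not counted, so non-overlap is not read as a result for these 4 genes. All 4 passed the test when the fit held only the 2 groups compared, with adjusted p of 0.0208 for C3, 0.0237 for C1S, 0.0320 for C1R and 0.0441 for CD55, and C3 also passed without either normal library (limma adjusted p = 0.00803 and 0.00835). CFB (-0.20, limma adjusted p = 0.329) and CD59 (-0.04, limma adjusted p = 0.939) did not pass in either fit. The fit of only the 2 groups called 2108 of the 14206 genes tested. The median change of the 7 genes was -0.04, beside -0.01 over all genes tested.

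CFI overlaps a read-through gene, and the split of reads between them was checked. AC126283.2 (ENSG00000285330) covers 29.4% of the CFI exon bases on the same strand, and fragments from those bases can be given to either gene. It was at 1.80 and 2.05 FPKM in normal, 3.53 and 2.94 in PM10-treated normal, 12.1 and 3.69 in inflamed and 7.10 and 1.15 in PM10-treated inflamed hIECs, so that the libraries of the last 2 groups differed widely. The sum of both genes was 151 and 142, 134 and 126, 84.9 and 82.8, and 55.6 and 55.7 FPKM in the same order, and the libraries of a group lay closer together than for CFI alone in 3 of the 4 groups. CD59 has a read-through gene as well, AL049629.2, over 5.96% of its exon bases, at 4.93 to 5.64 FPKM without and 9.01 to 10.0 with cytokines. Adding these genes was chosen after the values were seen, and it ended no call of CFI or CD59.

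Whether PM10 acted differently in inflamed and in normal cells was tested as an interaction, the PM10 change with cytokines minus that without. C3 was called, 1 of the 7 tested genes beside 6.6% of all genes tested (2.11% higher), with a difference of 1.04 (SE 0.20, limma adjusted p = 0.0287), which read 6.14 with a pseudocount of 0.01. The difference was made of a change of -0.62 near the lowest listed values and one of 0.42 that did not pass, and 7 of 18 alternative settings ended the call, with adjusted p up to 0.0964. These were quantile normalization and each setting without 1 library of the other groups than normal hIECs. CD55 was lower with PM10 in normal and higher with PM10 in inflamed hIECs in every library, but its difference of 0.76 (SE 0.20, limma adjusted p = 0.0658) was not called. It passed in 4 of 19 alternative settings, one of them without the normal library at 20.4 FPKM (difference 0.95, limma adjusted p = 0.0255). The CFI difference was -0.36 (SE 0.10, limma adjusted p = 0.0870), so a larger fall in inflamed than in normal cells was not shown, although the sum of CFI and its read-through gene passed with a difference of -0.41 (limma adjusted p = 0.0235). C1S (0.26, limma adjusted p = 0.142), CFB (-0.38, limma adjusted p = 0.263), CD59 (0.28, limma adjusted p = 0.714) and C1R (0.04, limma adjusted p = 0.850) did not pass.

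The rest of the pathway was read from a list of 50 other complement genes. Of these 31 were at 0 in all 8 libraries, among them the 3 C1q chains, the lectin MBL2, the terminal components C6, C8A, C8B and C9 and the receptor CR2. Only 9 were tested, and 40 never reached 1 FPKM, among them C5, the source of the C5a peptide, at 0.458 to 0.699 FPKM. In inflamed against normal hIECs 8 of the 9 were called, 3 higher and 5 lower, beside 56.2% of all genes tested (25.9% higher and 30.3% lower), with a median change of -0.33 over the 9. Of the 5 lower genes 3, C7, C4A and C4B, reached the filter only through the normal libraries, where they were high, so this count is no support for a direction. The membrane cofactor CD46, which helps factor I, was at 41.3 and 36.9 against 21.7 and 18.3 FPKM and rose by 0.94 on the log2 scale (SE 0.13, limma adjusted p = 0.000733). C3AR1, the C3a receptor, rose by 1.29 (limma adjusted p = 3.68e-05) and C1RL by 0.38 (limma adjusted p = 0.00146). CLU, which encodes clusterin, an inhibitor of the terminal complex, was at 12.6 and 12.4 against 67.9 and 91.5 FPKM and fell by 2.56 (SE 0.13, limma adjusted p = 4.35e-06). SERPING1, the C1 inhibitor that removes C1r and C1s, was at 116 and 130 against 144 and 166 FPKM and fell by 0.33 (SE 0.092, limma adjusted p = 0.0174), a call that ended after rescaling to TPM and without the normal library at 166 or the inflamed library at 116 FPKM (adjusted p up to 0.110). C7, at 2.31 and 3.47 FPKM in the normal libraries, was at 0 in all libraries with cytokines and fell by 1.94 (limma adjusted p = 2.89e-05). C4A fell by 1.14 (limma adjusted p = 0.0112) and C4B by 1.00 (limma adjusted p = 0.00552), but they are near-identical copies whose reads can be split between them, and both were under 4 FPKM.

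**Figure D4:**
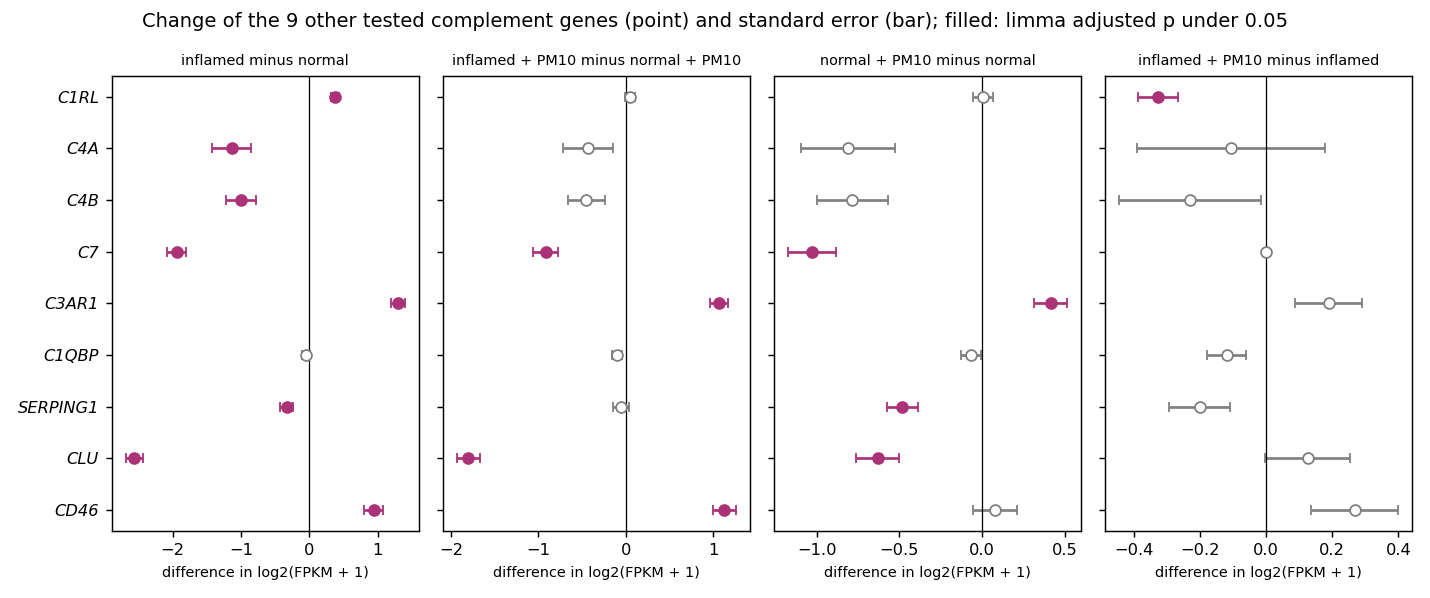
Difference in log2(FPKM + 1) between groups (x axes) for the 9 other complement genes that were tested (y axis) in 4 comparisons named above the panels; points are limma estimates, bars their standard errors, and filled points passed an adjusted p of 0.05. CLU had the lowest value with cytokines at -2.56, CD46 and C3AR1 were filled on the right in both panels for cytokines, and with PM10 all filled points but C3AR1 at 0.41 lay to the left; the x axes differ between panels, and no standard error is drawn for C7 in the last panel, where both groups were at 0.

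With PM10 present, 4 of the 9 were called between inflamed and normal hIECs, 2 higher and 2 lower, beside 65.4% of all genes tested. C7, among the 2 lower, reached the filter only through the normal libraries, so this count is no support for a direction. CD46 rose by 1.13 (limma adjusted p = 0.000217) and C3AR1 by 1.07, and CLU fell by 1.80 (limma adjusted p = 1.75e-05) and C7 by 0.92. PM10 in normal hIECs was followed by lower CLU (-0.63, limma adjusted p = 0.0291), SERPING1 (-0.48, limma adjusted p = 0.0243) and C7 (-1.03, limma adjusted p = 0.00921) and by higher C3AR1 (0.41, limma adjusted p = 0.0474), 4 of the 9 beside 9.23% of all genes tested. Each of these 4 calls ended when either PM10-treated normal library was left out, with adjusted p up to 0.159 for CLU, 0.132 for SERPING1, 0.111 for C7 and 0.203 for C3AR1 over all alternative settings. The count of 4 in normal hIECs holds C7, which reached the filter only through the normal libraries, as did C4A and C4B, which were not called. This count is therefore no support for an excess over all genes tested. In inflamed hIECs 1 of the 9 was called with PM10, beside 15.2% of all genes tested. C1RL was at 15.7 and 16.4 FPKM in inflamed hIECs and fell by 0.33 with PM10 (limma adjusted p = 0.0143). This call ended after rescaling to TPM and without any 1 of the 4 inflamed libraries, with changes of -0.36 to -0.29 over all alternative settings. CD46, at 46.0 and 48.5 against 41.3 and 36.9 FPKM, was not called.

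The genes whose pattern over the 8 libraries was most like that of each of the 6 called genes were found by the smallest sum of squared differences in log2(FPKM + 1) after each gene's mean was removed. The comparison covers only 8 libraries in 4 groups, so it mainly reflects the group means. For C1R these genes were OAS3, B2M and CASP4, with B2M, the light chain of class I molecules, at 482 and 525 FPKM in normal and 4458 and 4690 in inflamed hIECs. For C1S they were CD74, XAF1 and TAP1, and TAP1, the peptide transporter, was at 5.18 and 6.47 against 167 and 168 FPKM. For C3 they were the metallothionein genes MT2A and MT1E and the claudin gene CLDN1, which was at 2.39 and 2.79 FPKM in normal, 19.6 and 21.1 in inflamed and 24.9 and 26.1 in PM10-treated inflamed hIECs. For CFB they were APOL2, NFKB1 and BST2. For CFI they were LPAR4, TLE1 and SLC7A3, and LPAR4 was at 2.51 and 2.86 FPKM in normal, 0.975 and 1.00 in inflamed and 0.427 and 0.4998 in PM10-treated inflamed hIECs. For CD55 they were ZFAS1, AC006062.1 and RASL10B.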

How the data were processed

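The authors made poly-A libraries that keep no strand, trimmed reads with Cutadapt and Sickle, aligned them to GRCh38 with HISAT2 and estimated expression with StringTie. Each library was deposited as FPKM per gene, and the annotation release is not given in the sources used here. Depth is unknown, so no count test or counting interval was possible, and precision rests on 2 libraries per group. Values were compared as log2(FPKM + 1) with limma 3.58.1 (R 4.3.3), its mean-variance trend, a mean for each of the 4 groups and Benjamini-Hochberg adjustment over 14206 genes within each of 5 comparisons. The C1S to C1R ratio was compared by an exact permutation test. Genes without 1 FPKM in 2 libraries were left out of tests. Positions and overlaps came from GENCODE 44, which held 99.5% of the identifiers and all 9 genes. The members and lists were chosen with earlier results of these data known. The text names all members, the other complement genes that were called or belong to a fixed set, and the 3 genes nearest in pattern, and some genes are not reported here. Same-numbered libraries did not deviate together (correlations -0.0015 to 0.079). Alternatives covered the pseudocount, filters, scaling, the variance model, the groups fitted, the replicate number and each library left out. Tables used pandas 2.3.3 and scipy 1.17.1 under Python 3.11.15, and plots matplotlib 3.10.9.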

Additional observations from a re-analysis of the deposited data

Results flagged for a closer look

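The interaction test of limma, which compares the PM10 effect in inflamed and in normal hIECs, called 2 complement genes, beside 6.6% of all genes tested, and neither call is firm. For C3 the difference was 1.04 (adjusted p = 0.0287), between a change of -0.62 in normal and 0.42 in inflamed hIECs. For C7 it was 1.03 (adjusted p = 0.0312), which is the change of -1.03 in normal hIECs with its sign turned, since C7 was at 0 in all 4 libraries with cytokines, so it adds nothing to that change. C3 reached the filter only through the libraries with cytokines and C7 only through the normal libraries. The call of C3 ended under 7 of 18 alternative settings and that of C7 under 8 of 18. With 2 libraries a group, single outlying libraries could not be tested for.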

How the results depend on the processing

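The calls of C1R, C1S, C3, CFB and CFI with cytokines held under every alternative that tested them, without and with PM10, as did that of CD55 without PM10, and of 1182 recomputed changes of 21 genes 1092 kept their direction and side of the threshold. Precision is limited by 2 libraries a group and, for C2, C3, CFB and CFD, by values near the lowest listed. With genes of a mean of at least 5 FPKM only, which drops C3 and CFB, 4931 genes were called for cytokines without PM10 and 5551 with PM10, and no member (0) for PM10 in normal hIECs. For PM10 in normal hIECs 0 members were also called with every gene above 0, with quantile normalization, with only the groups compared (23 genes called) and with the replicate number as a block. The replicate block ended the call of C3 there (adjusted p = 0.0501) and no other call of the genes named, and the numbers are not known to pair the libraries. Rescaled to TPM, 481 genes were called for PM10 in normal hIECs, 1250 in inflamed hIECs and 450 for the interaction, and CD59 changed by 0.0061 with PM10 in inflamed hIECs in place of -0.04. With only the groups compared 5 of the 7 members tested were called for PM10 in inflamed hIECs, beside 2108 of 14206 genes. The interaction has no such fit. For the interaction, 2 of the 7 members were called with median centring, beside 992 of 14206 genes. With the read-through genes added 2 were called, beside 938 genes.

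Leaving out 1 library, with the lone library of a group assumed to vary like the others, gave 0 to 2 members and 194 to 2627 genes called for PM10 in normal hIECs, 1 to 2 members and 675 to 2992 genes for PM10 in inflamed hIECs, and 0 to 2 members and 263 to 1266 genes for the interaction. The interaction of C1R ranged from -0.067 to 0.15, that of CD59 from -0.15 to 0.71, and the PM10 change of CD59 in inflamed hIECs from -0.47 to 0.39. The share of calls that were higher moved from 46.1% to 56.4% for cytokines without PM10 after TPM, from 59.7% to 42.9% after median centring and 75.1% after TPM without mitochondrial genes for PM10 in normal hIECs, and from 32.0% to 45.7% and 46.6% for the interaction after median centring and quantile normalization. The cause of these shifts was not tested.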
